A study of Rattus norvegicus with 19 samples.

Results

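The subject here is a group of 10 genes of brain endothelial cells and the blood-brain barrier, measured in the deep motor cortex of rats after a lesion of the spinal cord. The members are listed by symbol, and no threshold on their values was applied: Abcg2, Abcb1a, Slc2a1, Cldn5, Cdh5, Pecam1, Emcn, Flt1, Kdr and Tek, with every probe set annotated to one of them alone. That gave 13 of the 31042 probe sets tested, which represent 9 of the 10 genes. Cdh5, the gene of the adherens junction protein VE-cadherin, has no probe set in the annotation used here and was not analysed here. Abcb1a and Kdr have more than 1 probe set, as does Flt1, so each gene was represented by its probe set of highest mean over all arrays, and the other probe sets are given beside it.

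The rats were adult female Fischer 344 animals in which the dorsal columns had been cut with a wire knife in the neck, at the third cervical level. Samples were taken at days 1, 3, 7, 14 and 49 after the lesion (n = 3 arrays each) and from a control group labelled as time 0 (n = 4 arrays), all of the same strain, sex and stage. A sham operation is not mentioned for the controls, and nor is pooling of animals. The deeper cortical layers of the limb areas were dissected, which hold the neurons that project to the cord.

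Capillary endothelial cells of the brain are sealed to each other by tight junctions, and they carry nutrients inward and pump drugs and metabolites outward through transporters in their membranes. These cells are kept in this state by signals from pericytes and astrocytes, and their growth and survival depend on receptors for vascular endothelial growth factor and for the angiopoietins. In a bulk sample fewer endothelial cells and less RNA per cell cannot be told apart.

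All values below are log2 signals after RMA, 1 per probe set and array, and a difference of 1 is a doubling on a linear scale. Signals of different genes are not compared, because probe sets differ in response. Differences were tested with limma in 1 fit over all 19 arrays, and p-values were adjusted over all 31042 by the Benjamini-Hochberg method, with calls made under 0.05. Of the 19 arrays, 2 stood apart from the rest, day 14 replicate 2 and day 49 replicate 2. Their median correlation with the other arrays was 0.931 and 0.969, against 0.994 to 0.997 in the other 17. The probe sets for beta-actin, a measure of RNA integrity, were 2.24 higher at the 3' than at the 5' end in day 14 replicate 2, against 0.877 to 1.29 in the 17, and 0.845 higher in day 49 replicate 2. Both arrays were kept in the fit, and results are also given from a fit of the 17 others.

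Among the members, whether Abcg2 passed at day 1 depended on which arrays were used and how. Abcg2, an efflux transporter on the blood-facing side of brain capillaries, had a signal at day 1 that lay 0.43 above control, and its mean at day 3 differed from control by -0.01. None of the 13 probe sets passed in the fit of 19 arrays, and that of Abcg2 alone passed in the fit of 17, at day 1 against control and at day 3 against day 1. With the replicate number as a block in the fit of 17, an alternative chosen after seeing the data, the day 1 call was lost (limma, adjusted p = 0.0902) and the day 3 call was kept. Under weights that let each array count by its own spread, Abcg2 passed in both comparisons as well, and a dim probe set of Flt1 passed at day 49, where 21.0% of all probe sets did. The weights of day 49 replicates 1, 2 and 3 were 0.385, 0.067 and 3.703, so that weighted group rests mostly on replicate 3. In the same order they were 3.166, 1.093 and 0.766 at day 1 and 3.006, 1.133 and 1.371 at day 3. Replicate 1 thus counts most at both of these times.

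The promoter window of Abcg2 is shown because this is the member that the results turn on, and that of Cldn5 because it is the tight junction gene and, of the members, the one with values most like those of Abcg2 across arrays. Both are the 250 bases before the start site that the RefSeq promoter table of build GRCr8 gives, read 5′ to 3′ on the strand of the gene. Abcg2 is from chr4:89075224-89075473 on the plus strand and Cldn5 from chr11:95718599-95718848 on the minus strand. The Abcg2 window lies inside the span RefSeq gives for that gene over all its transcripts, so the start used is not the most upstream one. Capitals mark a match to 1 of 4 motifs searched on both strands.
Abcg2: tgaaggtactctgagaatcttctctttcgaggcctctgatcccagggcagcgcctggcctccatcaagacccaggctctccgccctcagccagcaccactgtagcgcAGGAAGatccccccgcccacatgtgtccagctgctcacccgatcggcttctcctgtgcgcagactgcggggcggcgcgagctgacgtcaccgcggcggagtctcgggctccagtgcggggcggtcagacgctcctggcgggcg
Cldn5: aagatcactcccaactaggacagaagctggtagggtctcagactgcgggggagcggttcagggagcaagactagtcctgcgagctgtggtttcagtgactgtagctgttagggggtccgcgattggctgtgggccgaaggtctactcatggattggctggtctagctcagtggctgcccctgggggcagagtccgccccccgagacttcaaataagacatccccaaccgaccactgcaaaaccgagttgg
The motifs were AGGAAG for ETS factors, AACAAT for SOX factors, GTAAACA for FOX factors and TGTTCT for the glucocorticoid receptor. The Abcg2 window held 1 match, to the ETS motif, with its first base at -143 from the start, and the Cldn5 window held none. Promoter windows were found for 7 of the 10 genes. The ETS motif was in 3 of these 7 (Abcg2, Emcn and Flt1), against 29.5% of all 33469 windows of this length. The SOX motif was in 1 of 7 (Emcn; 10.3% of all), and the FOX motif (3.21% of all) and the glucocorticoid receptor motif (17.5% of all) in 0 of 7. A match is a description of the letters and not a site, and the lack of one says only that the letters are not in this window.

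Among the transporters, Abcg2 had 9.12, 9.15 and 9.36 in the 3 arrays of day 1, against 8.74, 8.86, 8.83 and 8.70 in the 4 control arrays. The lowest day 1 array lay above the highest control array, and no array of any other group reached the day 1 range. The mean was 9.21 ± 0.13 at day 1 (SD, n = 3) and 8.78 ± 0.07 in control (SD, n = 4), a difference of 0.43 (SE 0.11), or 1.34-fold. In the fit of 19 arrays this did not pass (limma, adjusted p = 0.817). In the fit of 17 the difference is the same, since neither array left out is in the comparison, but the shared spread is smaller (SE 0.07) and it passed (limma, adjusted p = 0.019; 95% interval 0.28 to 0.58). Without day 49 replicate 2 alone the adjusted p was 0.0582, and without day 14 replicate 2 alone 0.498 (limma). With 17 arrays and the replicate block the difference was 0.40 (SE 0.08; 95% interval 0.23 to 0.57) and did not pass (limma, adjusted p = 0.0902). The block compares arrays of like number, so control replicate 4, which has no like-numbered array, drops out of this difference. Leaving that array out of the fit of 19 arrays, without a block, also gave 0.40.

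Few probe sets of the table passed at day 1. With 19 arrays 0.0354% of all passed and 0 of the 13 members did, while 1.64% of all and 1 of the 13 had an unadjusted p under 0.05. With 17 arrays 0.219% of all passed and 1 of the 13 did, while 7.12% of all and 2 of the 13 (Abcg2 and Abcb1a) had an unadjusted p under 0.05, and with array weights 0.564% and 1 of the 13. With 17 arrays and the replicate block 0.148% of all passed and 0 of the 13. All 3 day 1 arrays lay above all 4 control arrays in 4.4% of all probe sets, and in 1 of the 13 (Abcg2). All lay below in 2.54% of all probe sets and in 0 of the 13.

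**Figure D1:**
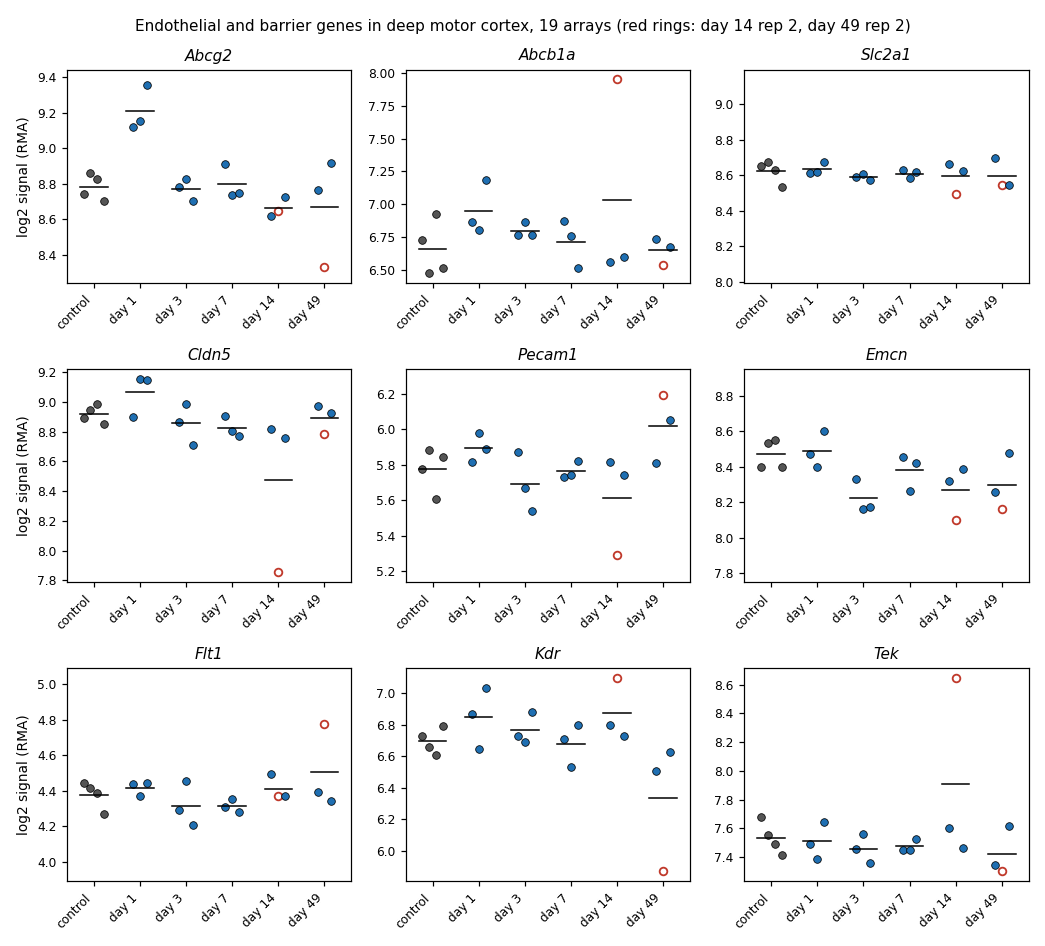
Log2 signal (vertical axis) of the representative probe set of 9 genes in each of 19 arrays, by group in order of time (horizontal axis), with the group mean as a bar and scales that differ between panels. Abcg2 is at 9.12 to 9.36 at day 1 and at 8.70 to 8.86 in control, Slc2a1 is nearly level, and of the 2 arrays with red rings that of day 14 lies far from the rest for Abcb1a, Cldn5 and Tek, and that of day 49 for Kdr.

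At day 3 Abcg2 was at 8.782, 8.828 and 8.700, of which the first 2 lay within the control range and the other just under its lowest array (8.704). The mean of 8.77 ± 0.06 at day 3 (SD, n = 3) was lower by 0.44 than at day 1 (SE 0.12; limma, adjusted p = 1 with 19 arrays). With 17 arrays the fall between day 1 and day 3 passed (-0.44, SE 0.08; limma, adjusted p = 0.0267), where 0.203% of all probe sets passed. In that fit 4 of the 13 (Abcg2, Cldn5, Pecam1 and Emcn) had an unadjusted p under 0.05, as did 7.92% of all. With 19 arrays 0.0258% of all passed and 0 of the 13, and 1.85% of all and 2 of the 13 had an unadjusted p under 0.05, while array weights called 1.58% of all and 1 of the 13. With 17 arrays and the replicate block Abcg2 passed (limma, adjusted p = 0.0393), as did 0.267% of all. Both comparisons use the same 3 day 1 arrays, so the second is no independent check of the first.

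At day 7 Abcg2 was at 8.91, 8.74 and 8.75, and at day 14 at 8.62, 8.65 and 8.73. At day 49 it was at 8.77, 8.33 and 8.92, where the lowest value is that of the array that stands apart. In order of their means the groups were day 14 (8.66), day 49 (8.67), day 3 (8.77), control (8.78), day 7 (8.80) and day 1 (9.21). Only the step to day 1 was wider than the spread of the neighbouring groups. The differences of days 3, 7, 14 and 49 from control lay between -0.12 and 0.02, with adjusted p between 0.56 and 1.

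Array means of markers of other cell types also differed between day 1 and control. The mean log2 signal of 9 astrocyte markers, of 10 listed, was between 6.35 and 6.48 in day 1 arrays and between 6.20 and 6.31 in control arrays. That of 13 microglia and macrophage markers, all 13 listed, was between 5.82 and 6.01 at day 1 and between 5.755 and 5.799 in control. Of these markers 6 of 9 and 9 of 13 were above control at day 1, and 0 passed in either fit. In both lists the array means of day 1 lay above those of all control arrays. The median difference was 0.04 for the astrocyte and 0.13 for the microglia and macrophage markers, and an array mean can rest on few markers. Of 9 oligodendrocyte and myelin markers, of 10 listed, 8 were above control at day 1, with array means of 7.02 to 7.11 at day 1 and 6.88 to 7.04 in control, which overlap. The part of these cell types in the Abcg2 difference was not tested. Pericyte markers (12 of 12 listed) overlapped between the groups, at 5.41 to 5.48 in day 1 arrays and 5.31 to 5.47 in control arrays. RMA gives no zero, so no marker is at 0.

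Abcb1a, which encodes the P-glycoprotein efflux pump, had 6.86, 6.80 and 7.18 at day 1, against 6.73, 6.47, 6.92 and 6.51 in control. The groups overlap, with 1 control array above 2 of the day 1 arrays. The difference was 0.29 (SE 0.25; limma, adjusted p = 1), and with 17 arrays its interval was wholly above 0 (0.05 to 0.53) without passing after adjustment (limma, adjusted p = 0.58). Its second probe set was 0.13 above control at day 1. At day 14 the mean of Abcb1a was 0.37 above control with 19 arrays and 0.09 below it with 17 (-0.09). Day 14 replicate 2 had 7.95 and the other arrays of that day 6.56 and 6.59. The second probe set was at -0.01 from control with 19 arrays and at -0.20 with 17 (limma, adjusted p = 0.855 with 17). With 17 arrays its day 14 values lay below all control arrays. Cldn5 and Emcn did so too, 3 of the 13, as in 5.77% of all probe sets.

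Slc2a1, the glucose transporter through which the brain takes up most of its fuel, had the narrowest range of the 13 member probe sets over the 17 arrays. It had 8.61, 8.62 and 8.67 at day 1, against 8.66, 8.68, 8.63 and 8.53 in control, and over the 17 arrays it spanned 0.162, between 8.53 and 8.70. The difference at day 1 was 0.01, with a 95% interval of -0.13 to 0.15. At the other times it lay between -0.03 and -0.01. A difference within this interval could not be seen with so few arrays.

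Of the junction and surface genes, Cldn5, the main claudin of the brain endothelial tight junction, had 8.90, 9.16 and 9.15 at day 1, against 8.90, 8.95, 8.99 and 8.85 in control. At day 1 2 of the 3 arrays lay above all control arrays and the other lay within them. The difference was 0.15 (SE 0.17; limma, adjusted p = 1), with a 95% interval of -0.21 to 0.50, or -0.01 to 0.31 with 17 arrays. At day 14 Cldn5 was 0.44 below control with 19 arrays (-0.44; limma, adjusted p = 0.365), where day 14 replicate 2 had 7.86 and the other 2 arrays 8.82 and 8.76. With 17 arrays it was 0.13 below (-0.13; limma, adjusted p = 0.911). All day 14 arrays lay below all control arrays for Cldn5 and for Emcn, 2 of the 13, as in 2.62% of all probe sets.

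Emcn, which encodes endomucin, a sialoglycoprotein on the surface of capillary and venous endothelium, was the member furthest below control at day 3. It had 8.33, 8.16 and 8.17 at day 3, against 8.40, 8.53, 8.55 and 8.40 in control. All 3 arrays of day 3 lay below all 4 control arrays, as in 2.82% of all probe sets, and Emcn was the 1 of the 13 that did. The mean was 8.22 ± 0.10 at day 3 (SD, n = 3) and 8.47 ± 0.08 in control (SD, n = 4). The difference of -0.25 (SE 0.09) did not pass with 19 arrays (limma, unadjusted p = 0.0187, adjusted p = 1) or with 17 (SE 0.08; adjusted p = 0.937). No probe set of the whole table passed at day 3 in either fit (limma, 0.0% of all). An unadjusted p under 0.05 was found in 0.908% of all with 19 arrays and in 4.56% with 17, and in 1 of the 13 each time. Of 15 meningeal and choroid plexus genes 14 were also below control at day 3 (median -0.20), with array means of 7.18 to 7.41 at day 3 and 7.34 to 7.64 in control, and their part in the Emcn difference was not tested.

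At day 3 the values of Emcn did not overlap those of day 1 either. They were 8.332, 8.159 and 8.173 at day 3, all below 8.470, 8.398 and 8.602 at day 1, a difference of -0.27 (SE 0.10; limma, adjusted p = 1, or 0.325 with 17 arrays). All day 3 arrays lay below all day 1 arrays in 8.89% of all probe sets, and in 3 of the 13 members, those of Abcg2, Slc2a1 and Emcn. At day 7 Emcn had 8.46, 8.26 and 8.42, which overlaps the control range. At day 14 it had 8.32, 8.10 and 8.38, and at day 49 it had 8.25, 8.16 and 8.47.

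Pecam1, an adhesion molecule at endothelial contacts that leukocytes and platelets also carry, had 5.82, 5.98 and 5.89 at day 1, against 5.78, 5.88, 5.61 and 5.85 in control. These overlap, and its difference from control was 0.12 at day 1 and -0.08 at day 3. At day 49 Pecam1 had 5.81, 6.19 and 6.05, a difference of 0.24 from control (SE 0.12; limma, adjusted p = 0.338). With 17 arrays it was 0.15 (limma, adjusted p = 0.567). No junction or surface gene passed at any time in the fit of 19 arrays.

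**Figure D2:**
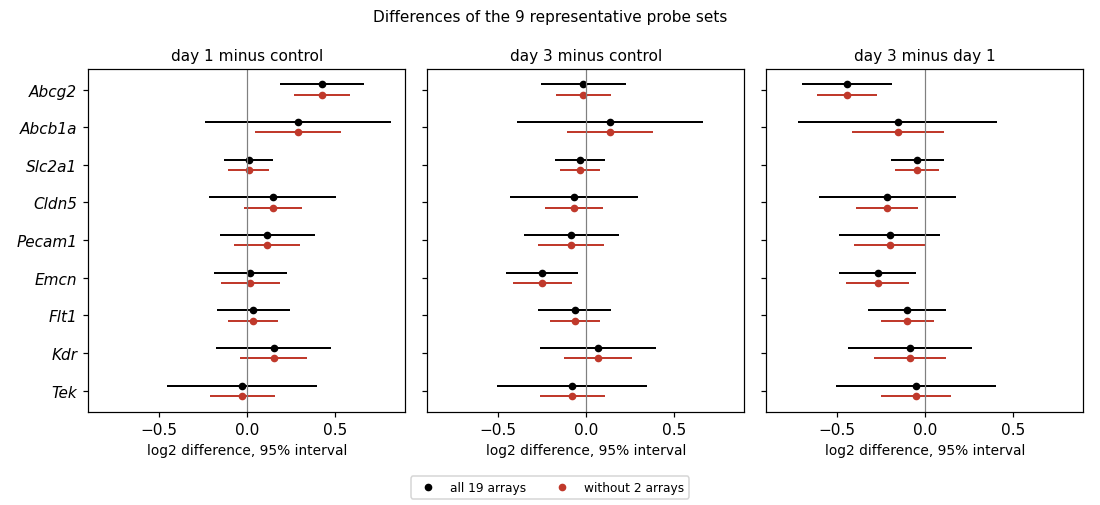
Log2 differences (horizontal axis) of 9 genes (rows) for day 1 minus control, day 3 minus control and day 3 minus day 1, with 95% intervals without adjustment, from the fit of 19 arrays (black) and of 17 (red). Abcg2 at day 1 (0.43) has its interval above 0 in both fits, as has Emcn at day 3 (-0.25) below 0, and the interval of Slc2a1 is narrow around 0.

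Of the receptors, Kdr and Flt1 bind vascular endothelial growth factor. Kdr is its main signalling receptor, and Flt1 binds the ligand tightly and can act as a decoy. Kdr had 6.87, 6.65 and 7.03 at day 1, against 6.73, 6.66, 6.61 and 6.79 in control, a difference of 0.15 (SE 0.15; limma, adjusted p = 1). The groups overlap. At day 49 it had 6.51, 5.87 and 6.63, with the lowest value in the array that stands apart. The day 49 difference was -0.36 with 19 arrays (limma, adjusted p = 0.308) and -0.13 with 17 (limma, adjusted p = 0.662). Its second probe set is dim, with a mean of 3.75 over all arrays. At day 14 that probe set had 3.85, 3.95 and 3.82, above all control arrays (3.66 to 3.76), as in 6.43% of all probe sets, with a difference of 0.16 (limma, adjusted p = 0.365). At day 49 it was 0.05 above control with 19 arrays and 0.08 with 17, the opposite of the first. With 17 arrays it and a probe set of Flt1 lay above all control arrays at day 49, 2 of the 13, as in 7.54% of all.

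Flt1 was dim in all of its 3 probe sets, with means of 4.39, 4.34 and 3.97 over all arrays, below the median probe set of the table. The brightest had 4.44, 4.37 and 4.44 at day 1, against 4.44, 4.42, 4.39 and 4.27 in control. Its difference from control was between -0.07 and 0.13 over the 5 times. A second probe set of Flt1 was below all control arrays at day 7 (4.253, 4.327 and 4.264, against 4.328 to 4.366), as in 4.19% of all probe sets, and above them at day 14 (4.42, 4.38 and 4.53), by 0.09. The third was below control by 0.26 at day 7 (-0.26; limma, adjusted p = 1). The 3 probe sets differ in direction at day 1 and at day 14, so no direction is given for the gene.

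Tek encodes the endothelial receptor of the angiopoietins. It had 7.49, 7.39 and 7.65 at day 1, against 7.68, 7.56, 7.49 and 7.41 in control, which overlap. The difference was -0.03 at day 1, -0.08 at day 3 and -0.06 at day 7. At day 14 Tek was 0.37 above control with 19 arrays (limma, adjusted p = 0.372), where day 14 replicate 2 had 8.65 and the other 2 arrays 7.60 and 7.46. With 17 arrays the day 14 difference was below 0.01 in size, and its standard error was 0.10.

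The values at days 14 and 49 rest heavily on the 2 arrays that stand apart. Day 14 replicate 2 lay outside the range of the other 17 arrays in 9 of the 13 member probe sets, and day 49 replicate 2 in 8 of 13, against 66.6% and 63.5% of all probe sets. In both arrays members lay above the range and below it. In the fit of 19 arrays 3 of the 13 had an unadjusted p under 0.05 at day 14 (Cldn5, Emcn and the dim probe set of Kdr), where 13.1% of all probe sets did, and 1 (Kdr) at day 49, where 15.4% did. After adjustment 0.0% of all passed in either, and at day 7 against control 0.0% passed too. There an unadjusted p under 0.05 was found in 0 of the 13 and 0.886% of all with 19 arrays, and in 1 of the 13 (the dimmest Flt1 probe set) and 4.89% of all with 17. The steps between later neighbouring times gave 0 of the 13 and 0.0% of all, in both fits. At day 49 against day 14, 4 of the 13 (Cldn5, Pecam1, Kdr and Tek) had an unadjusted p under 0.05 with 19 arrays, where 14.2% of all did, and with 17 arrays 0 of the 13, where 5.56% of all did.

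The moderated F test asks whether any of the 5 times differs from control. It called 0 of the 13 with 19 arrays and 0 of 13 with 17, where 0.0129% and 0.135% of all probe sets passed. Abcg2 had the smallest p of the members in both, with adjusted p = 0.724 and 0.0654 (limma). With array weights Abcg2 passed (adjusted p = 0.00282), as did 20.7% of all probe sets, with the day 49 group resting mostly on replicate 3. An unadjusted p under 0.05 was found in 2 of 13 with 19 arrays (4.41% of all) and in 2 of 13 with 17 (7.07% of all).

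The 9 genes were also described together. At day 1, 8 of the 9 representative probe sets were above control, with a median of 0.12, and Tek was the exception. With the replicate block, in which control replicate 4 drops out of the difference, 6 of 9 were above, with Slc2a1 and Emcn below too. Slc2a1 and Emcn were also below control without a block when that array was left out. With the mean of a gene's probe sets 7 of 9 were above, with Flt1 and Tek below. Over all 14217 genes 52.7% were above control, with a median of 0.01. At day 3, 7 of 9 were below control (median -0.06, all genes -0.01), with Abcb1a and Kdr above. Of all genes 47.2% were above control there. At day 7 again 7 of 9 were below (median -0.02, all genes 0.01), where 53.9% of all genes were above. At day 14 4 of 9 were above control (63.0% of all genes) and at day 49 2 of 9 (44.5% of all). With 17 arrays it was 4 of 9 at each time (53.4% of all genes at day 14 and 50.3% at day 49). At day 3 against day 1, 9 of 9 were lower (median -0.15), where 45.7% of all genes were higher (median -0.01). The arrays left out of the fit of 17 are in neither group, so that fit gives the same differences. The comparisons with control and between days 1 and 3 share arrays and are not independent of each other.

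Other vascular genes were looked at through 8 lists with 117 genes, of which 105 had a probe set. None of the 105 passed in the fit of 19 arrays (limma) at any of the 5 times against control or between days 1 and 3. At day 1 an unadjusted p under 0.05 was found in 2 above control and 3 below with 19 arrays, where 1.09% of all probe sets were above and 0.557% below. With 17 arrays it was found in 12 above and 10 below, where 4.22% of all were above and 2.9% below. Each of the 105 genes is represented by its brightest probe set, so the shares over all probe sets are not a like reference. At day 1 62 of 105 were above control with a median of 0.02, and at day 3 69 of 105 were below it with a median of -0.03. Among 15 other barrier transporters the median was 0.03 at day 1, with 11 above control, and at day 3 7 were above it and 8 below. Among 13 other junction and adhesion genes it was 0.05 and -0.05, with 9 and 4 above control.

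The genes of smallest p in these lists did not pass, and their values show the size of the differences seen. Plvap, which builds the diaphragms of leaky capillaries and is low in barrier vessels, was at 7.41 to 7.64 at day 1 and at 7.08 to 7.28 in control. Its groups do not overlap, as in 4.4% of all probe sets at day 1 in that direction, with a difference of 0.38 (SE 0.13; limma, adjusted p = 1, or 0.443 with 17 arrays). Of its list of leakage and activation genes 8 were above control at day 1 and 7 below, with a median of 0.01. Angpt2, a ligand of Tek made by activated endothelium, was at 6.14 to 6.55 at day 1 and 6.63 to 6.88 in control, a difference of -0.42 (SE 0.13; limma, adjusted p = 1, or 0.138 with 17 arrays). Slc7a5, a large neutral amino acid transporter of the barrier, had the smallest p at day 14. It was at 5.53 to 6.70 at day 14 and at 7.25 to 7.65 in control, a difference of -1.18 (SE 0.22; limma, adjusted p = 0.301) and of -0.85 with 17 arrays (adjusted p = 0.345).

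The other lists had their smallest p at day 14 or day 49. Ramp3, a partner of receptors for adrenomedullin, was 0.81 below control at day 14 (-0.81) with 19 arrays and 0.24 below (-0.24) with 17. At day 49 the junction gene Jam3 was at -0.36, the von Willebrand factor gene Vwf at 0.44, the pericyte gene Rgs5 at -0.60 and the smooth muscle myosin gene Myh11 at 0.27. With 17 arrays these were -0.30, 0.16, -0.30 and 0.15. The adjusted p of these genes lay between 0.306 and 0.365 with 19 arrays. Rgs5 ran against its list at day 49, where 10 of 12 pericyte genes were above control (median 0.09), against 4 of 12 with 17 arrays (median -0.02).

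**Figure D3:**
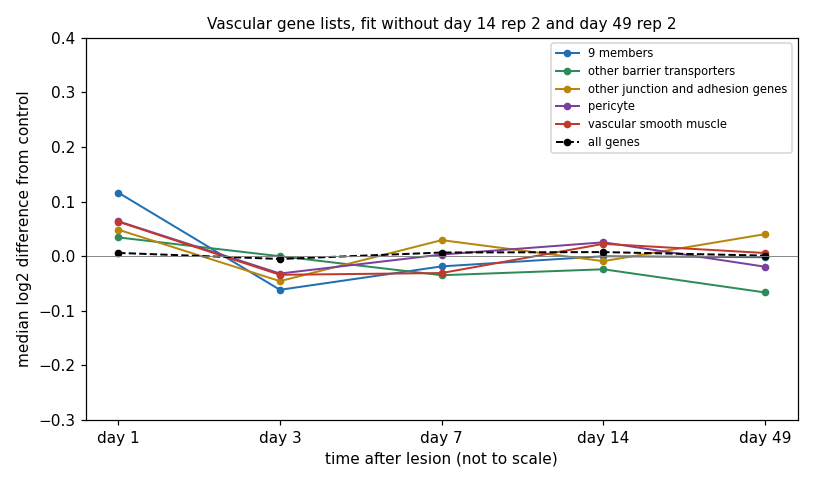
Median log2 difference from control (vertical axis) of the 9 members, of 4 lists of other vascular genes and of all genes (dashed) at 5 times (horizontal axis, not to scale), in the fit of 17 arrays. The members are at 0.12 at day 1 and at -0.06 at day 3, and all genes stay within 0.01 of 0.

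Markers of the dissected region were present. Of 11 markers of deep pyramidal neurons 10 had a probe set, at a mean of 6.11 to 6.13 in day 1 arrays and 5.85 to 6.16 in control arrays, and none passed. Red blood cell genes, which mark blood left in the vessels, had 4 of 9 listed genes on the array. Their mean was 6.83 to 6.97 at day 1 and 6.546 to 7.402 in control, so the groups overlap. Meningeal and choroid plexus genes (15 of 15) were at 7.24 to 7.55 at day 1 and 7.34 to 7.64 in control, and 8 of 15 were below control at day 1 and 13 of 15 at day 7. Of these Lum, a matrix proteoglycan, was at 9.09 to 9.83 at day 1 and at 10.09 to 10.39 in control (-0.93; limma, adjusted p = 0.192, or 0.041 with 17 arrays). The part of meninges in the vascular values was not tested.

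To see which genes follow the members, the mean of the 9 representative probe sets was set against every other gene by Pearson's r across arrays, as a description. Over 17 arrays the 5 genes most like it were Sulf2 (r = 0.897), Ajuba (0.864), Sh2d3c (0.85), Rpusd3 (0.843) and Nherf1 (0.838), of 14208 genes compared. Over all 19 arrays they were Sulf2 (0.874), Myom2 (0.844), Cdh15 (0.837), Uaca (0.812) and Psat1 (0.811). Sulf2 removes sulphate groups from heparan sulphate at the cell surface. Among the 50 most like genes over 17 arrays 1 was in a list of vascular or cell type genes. Listed genes are also few among the 14208 compared (105 in the 8 vascular lists), so this count is not read as a result. The arrays of all groups enter each r.

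The same was done for Abcg2 alone, a choice made after its values were seen. Over 17 arrays the 5 most like genes were Agt (r = 0.893), Cdh15 (0.88), Cd163 (0.879), Khdc4 (0.872) and Prodh (0.871). Agt encodes angiotensinogen, which astrocytes make in the brain, Cd163 a haemoglobin scavenger receptor of macrophages and Prodh a proline-degrading enzyme. Agt was at 5.74 to 6.06 at day 1 and at 4.81 to 4.92 in control, a difference of 1.04 (limma, adjusted p = 0.00688), while Abcg2 was 0.43 above. Cd163 was at 4.36 to 4.52 at day 1 and at 3.78 to 4.11 in control, and did not pass (limma, adjusted p = 1, or 0.0797 with 17 arrays). Prodh was at 7.65 to 7.73 at day 1 and at 6.71 to 7.25 in control (limma, adjusted p = 0.0938, or 0.00426 with 17 arrays). Among the members themselves, Cldn5 (r = 0.778) and Abcb1a (0.695) were most like Abcg2 over 17 arrays, and Slc2a1 (0.178) and Tek (0.182) least. The 5 genes were picked for likeness to Abcg2 over these same arrays, so the choice itself favoured values above control at day 1. Their p-values at day 1 are therefore no separate support for the Abcg2 difference. All r values are a description over arrays of all groups.

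**Figure D4:**
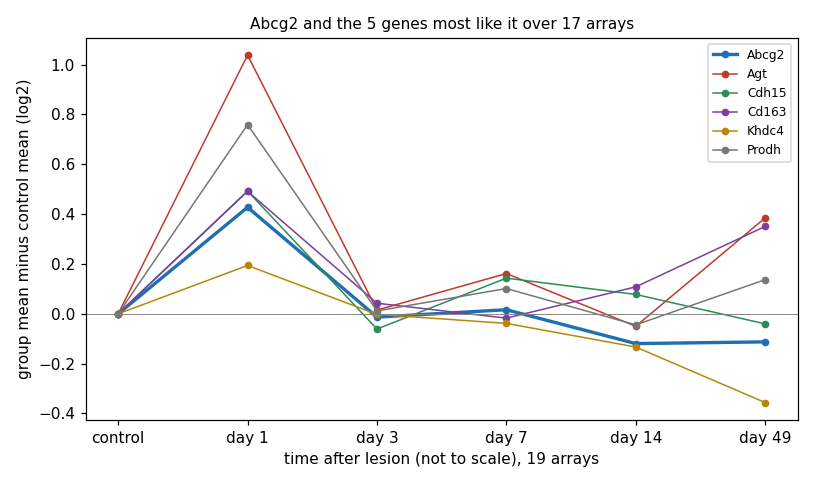
Group mean minus control mean in log2 (vertical axis) of Abcg2 (thick line) and of the 5 genes most like it over 17 arrays, drawn over all 19 arrays by time (horizontal axis, not to scale). Abcg2 is at 0.43 at day 1 and near 0 at days 3 and 7, Agt reaches 1.04 at day 1, and at day 49 the lines spread apart.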

How the data were processed

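The authors deposited 1 table of log2 signals. RMA is the tool that the submitters' processing notes name, without a version. This method subtracts background and gives arrays the same distribution by quantiles, so a change common to most transcripts is lost from these values. The number of arrays limits the precision. Scan dates were not analysed here.

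The table holds 31099 probe sets, and 57 array controls did not enter the tests. Gene symbols are those of the platform annotation after an update by gene ID (20758 probe sets) or accession (2), and 66 stayed as they were. One symbol was thus held by 20826 probe sets, several symbols by 436 and no symbol here by 9780. The probe set shared by Abcb1a and Abcb1b was left out of the members. Of the 13 member probe sets 9 lay at or above the median probe set.

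Testing used limma 3.58.1 in R 4.3.3, with 6 group means over 19 arrays (13 residual and 2.76 prior degrees of freedom, eBayes defaults, two-sided). Every time was compared with control and with the preceding time, and an F test joined the 5 differences. The procedure was tested on simulated data. Nothing says that the arrays are separate animals, and p-values then measure only the spread between these samples, which may be technical. The members, the gene lists, the 2 arrays left out and the rule for named genes (all members, and the gene of smallest p in each list) were chosen with earlier results of these data known. Groups share replicate numbers. Deviations from group means correlated by 0.166, 0.117 and 0.269 between like-numbered day 1 and control arrays. The other times did not all exceed 0.1 against control. Between like-numbered arrays of days 3 and 1 the values were 0.032, -0.275 and -0.256. Arrays of unlike number were not compared, so whether like-numbered arrays are paired is not known. The replicate block spans all 6 groups, and control replicate 4, which has no like-numbered array, drops out of the differences. Alternatives were the fit of 17 arrays, centring on medians, leaving out probe sets below the median one, trend and robust options of eBayes, the replicate block, array weights, a gene's mean over its probe sets, and each replicate left out in turn. The replicate block in the fit of 17 arrays was added after seeing the data. Promoter sequences are from RefSeq, build GRCr8. Figures were drawn with matplotlib 3.10.9.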

Additional observations from a re-analysis of the deposited data

Results flagged for a closer look

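The difference of Abcg2 between day 3 and day 1 is singled out because the effects at these times against control differ by a test of the difference itself. It was -0.4408 in the fit without the 2 arrays that stand apart (limma, adjusted p = 0.0267) and -0.3936 with array weights (limma, adjusted p = 0.00403). In the fit of all 19 arrays it did not pass (limma, adjusted p = 1), and with the replicate block in the fit without the 2 arrays it passed (limma, adjusted p = 0.0393). Among the 4 control arrays, 0 of the 13 member probe sets had an array past the critical value of Dixon's test, which chance exceeds in about 1 in 20 groups.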

How the results depend on the processing

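The count of member probe sets past the threshold was 0 in every comparison in the fit of 19 arrays. It was 1, that of Abcg2, at day 1 against control and at day 3 against day 1, both without the 2 arrays that stand apart and with array weights. With the replicate block and without the 2 arrays, an alternative chosen after seeing the data, it was 0 at day 1 against control (Abcg2 at adjusted p = 0.0902) and 1, again Abcg2, at day 3 against day 1. Array weights also gave 1 in the F test (Abcg2) and 1 at day 49 against control, a dim probe set of Flt1 (-0.28, adjusted p = 0.0476). These weights put most of the day 49 group on replicate 3 (3.703, against 0.385 and 0.067 for replicates 1 and 2). At days 1 and 3 replicate 1 had the largest weight (3.166 and 3.006). The count of member probe sets past the threshold was 0 under the remaining settings, as follows. It stayed at 0 with median centring, without the probe sets under the median one, with the trend and robust options of eBayes, with the replicate block over 19 arrays and when any replicate of the groups compared was dropped.

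The difference of Abcg2 at day 1 was between 0.35 and 0.47 with each of the 7 day 1 and control arrays left out in turn, with adjusted p = 1 in each. Its adjusted p was 0.0582 without day49 replicate 2, 0.498 without day14 replicate 2 and 1 with the replicate block (difference 0.40). The difference was 0.43 without the 2 arrays and 0.38 with array weights. Over all probe sets, the count at day 1 against control was 11 with 19 arrays, 68 without the 2 arrays, 3 with the replicate block, 46 with both the replicate block and without the 2 arrays, 175 with array weights, and between 0 (without day1 replicate 2) and 13 with 1 replicate left out. It was 6 without control replicate 1 or control replicate 2, 2 without control replicate 4 and 5 without day1 replicate 1. With array weights it was 2 at day 3, 9 at day 14 and 6514 at day 49, against 0 at each with 19 arrays. With 1 replicate left out it was between 0 and 1 at day 14 (1 without day14 replicate 1) and between 0 and 2435 at day 49 (2435 without day49 replicate 1); the cause was not tested.

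Of 670 differences of the 9 genes under alternatives, 660 moved by less than the spread between replicates without changing their call. Of the rest 8 were classed as moved and 2 as stronger. In a separate tally 70 of the 670, none of them called, changed sign, of which 51 were under 0.1 in size in the fit of 19 arrays. The others were values of Abcg2, Abcb1a, Pecam1, Flt1 and Tek at day 14 or 49. With 3 or 4 arrays a group, dim probe sets such as those of Flt1 limit what can be seen.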

Other observations

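In the fit of 17 arrays, 1 gene of the 105 other vascular genes passed between days 1 and 3. That fit called 0.203% of all probe sets in this comparison. Each of the 105 genes is represented by its brightest probe set, so that share is not a like reference. Igfbp7, a secreted binding protein that brain endothelium expresses, was lower at day 3 than at day 1 by 0.36 (-0.36, SE 0.07; limma, adjusted p = 0.0364). It did not pass in the fit of 19 arrays. Gfap, the intermediate filament of astrocytes, was lower at day 3 than at day 1 in the same fit (-0.83, SE 0.15; limma, adjusted p = 0.0273).

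The probe set shared by Abcb1a and Abcb1b, which is no member since it does not name a single gene, had 5.49, 5.79 and 5.34 at day 1, against 5.65, 5.30, 5.55 and 5.36 in control.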
